A study of Mus musculus with 44 samples.

Results

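The EGF-like ligand system of the mouse ovarian follicle was described from 9 genes chosen by symbol: the ligands Areg, Ereg, Btc and Hbegf, the receptors Egfr, Erbb2 and Erbb3, the sheddase Adam17 and the feedback inhibitor Errfi1. All 9 were present among the 22674 genes of the maturation table and the 18274 genes of the ovulation table. RNA sequencing had been done on 44 libraries of follicles of wild-type CD-1 mice, an outbred strain. For the maturation window 11 control libraries were labelled with the solvent DMSO and 10 were labelled PFNA (perfluorononanoic acid, a fluorinated surfactant of the PFAS class). In the ovulation window 12 control libraries were labelled hCG (human chorionic gonadotropin, which acts on the luteinizing hormone receptor) and 11 were labelled hCG with PFNA, so hCG was common to both groups. The labels give no dose, exposure time, animal age or batch, and do not say whether libraries came from separate animals or cultures, so the p-values below measure only the spread between these libraries.

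Areg (amphiregulin), Ereg (epiregulin) and Btc (betacellulin) are made by granulosa cells after the ovulatory surge of luteinizing hormone as membrane-anchored precursors that are cut free at the cell surface, Areg and Ereg mainly by Adam17 and Btc mainly by its relative Adam10. The shed ligands bind Egfr on granulosa and cumulus cells, and the signal passes through Ras and ERK to genes of cumulus expansion and oocyte maturation. Erbb2 has no known ligand and serves as a pairing partner, Erbb3 binds neuregulins and has a weak kinase, and Errfi1 (also called Mig6) is induced by receptor signalling and binds and blocks the Egfr kinase.

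Library totals of the ovulation window were 10.6 to 19.5 in units of 1e+06 estimated counts. The maturation values are TPM (reads per length, scaled to a fixed library total), and their depth is not given. The length used there is the span of the gene from start to end, introns included, not the length of the transcript. Comparisons of 1 gene between groups do not depend on that choice, but levels of different genes do. Granulosa markers were abundant in every group, with summed levels of 34113 to 54476 TPM in maturation controls, 14567 to 40769 TPM with PFNA, 11577 to 18161 CPM (counts scaled to the library total) in ovulation controls and 9431 to 15265 CPM with PFNA. These sums were carried mostly by Inha, joined by Inhba in the ovulation window. Of the 8 markers 6 were called lower in the maturation window (median log2 fold change -0.73), where 16.1% of all genes tested were lower. In the ovulation window 5 were higher and 2 lower (median 1.69), against 38% and 35.2% of all genes tested. On the first principal component of the maturation window, PFNA replicates 1 and 2 lay among the controls, with scores of -18.1 and -10.6, and the other PFNA libraries lay from 33.4 to 48.8. The 9 oocyte markers summed to 96.5 to 150 TPM in maturation controls and to 0.268 to 290 TPM with PFNA, where replicates 1, 2 and 10 held the highest sums. All libraries are bulk samples, so fewer cells of a type and less RNA per cell cannot be told apart.

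Ereg, Areg and Btc lie together on chromosome 5 (GRCm38, from the maturation table). Ereg spans 91074622 to 91093646, Areg 91139599 to 91148432 and Btc 91357261 to 91402994, the last on the minus strand. Egfr (16752203 to 16918158) and Erbb2 (98412470 to 98437716) are on chromosome 11, Erbb3 (128567523 to 128589652) on chromosome 10, Adam17 (21323509 to 21373632) on chromosome 12 and Errfi1 (150853919 to 150868892) on chromosome 4. RefSeq promoter windows of 250 bases upstream of the start were matched for 6 of the 9 genes, and Ereg, Hbegf and Erbb3 had no entry. These windows were searched on both strands for the cAMP response element TGACGTCA, which reads the same on either strand and is bound by Creb1, the factor activated by cAMP downstream of the luteinizing hormone receptor. Of 7 windows searched, that of Areg and the second of 2 for Errfi1 held it, and it was found in 508 of 32817 promoters, 1.55% of all. These 2 windows are printed for that match, shown in capitals, and Btc as the neighbour of Areg without it, all 5′ to 3′ in the direction of transcription on GRCm38.p6.

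Areg promoter, chr5:91139349-91139598, plus strand: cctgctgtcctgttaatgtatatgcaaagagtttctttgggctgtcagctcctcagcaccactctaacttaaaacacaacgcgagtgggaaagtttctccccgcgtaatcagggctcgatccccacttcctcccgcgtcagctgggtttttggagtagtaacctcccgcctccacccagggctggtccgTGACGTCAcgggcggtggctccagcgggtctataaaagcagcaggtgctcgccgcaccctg
Btc promoter, chr5:91402995-91403244, minus strand: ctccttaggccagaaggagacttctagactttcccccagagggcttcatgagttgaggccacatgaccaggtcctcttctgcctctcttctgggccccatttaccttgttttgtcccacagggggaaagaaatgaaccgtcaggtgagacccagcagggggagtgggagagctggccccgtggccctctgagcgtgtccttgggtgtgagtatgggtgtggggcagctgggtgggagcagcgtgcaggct
Errfi1 promoter, second RefSeq start, chr4:150854820-150855069, plus strand: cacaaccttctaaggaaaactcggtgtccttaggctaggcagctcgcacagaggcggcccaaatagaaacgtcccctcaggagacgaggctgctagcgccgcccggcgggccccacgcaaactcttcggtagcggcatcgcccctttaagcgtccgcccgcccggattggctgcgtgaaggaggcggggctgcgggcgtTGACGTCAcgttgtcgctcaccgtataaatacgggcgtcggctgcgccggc

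In Areg the element lay 61 to 54 bases before the start, and in Errfi1 51 to 44 bases before the second start. The shorter TGACG was present in windows of 4 of the 6 matched genes and in 17.7% of all promoters. A match is a description of the letters and shows neither binding nor a cause of the values that follow.

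The first question was what PFNA did to these genes in follicles given hCG. Ereg, Btc, Areg and Errfi1 were lower with PFNA, by 12.8-fold, 4.27-fold, 5.14-fold and 3.32-fold between group means, and Erbb2 was lower by a smaller margin. Erbb3, Hbegf and Egfr were higher, and Adam17 did not pass the threshold. In all, 8 of 9 members were called by edgeR's quasi-likelihood test (Benjamini-Hochberg adjusted p under 0.05 over all genes tested), 3 higher and 5 lower. Of all 13441 genes tested 73.2% were called, so the count of members is near the background.

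Ereg ranged from 1369 to 4363 CPM over 12 hCG controls with a median of 2192, and from 36.9 to 744 CPM over 11 PFNA libraries with a median of 132. The groups did not overlap, and PFNA replicate 6 was the highest of its group by a wide margin. The mean fell from 2498 ± 905 to 195 ± 195 CPM (SD, n = 12 and 11), a log2 fold change of -3.68 (standard error 0.41, edgeR adjusted p = 1.6e-08). Groups of 5 members did not overlap (Ereg, Btc, Erbb2, Errfi1 and Erbb3), against 26% of all genes tested.

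Areg ranged from 129 to 588 CPM in controls (median 259) and from 16.1 to 175 CPM with PFNA (median 46.7). All PFNA libraries but replicate 6 lay below every control, and replicate 4 was the lowest for both Areg and Ereg. The mean was 287 ± 135 CPM against 55.8 ± 45.5 CPM (SD, n = 12 and 11), a log2 fold change of -2.36 (standard error 0.35, edgeR adjusted p = 2.1e-06). Without PFNA replicate 6 the log2 fold changes of Areg, Ereg and Btc were -2.71, -4.15 and -2.31.

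Btc ranged from 1808 to 3450 CPM in controls (median 2643) and from 124 to 1422 CPM with PFNA (median 547). The groups did not overlap, with replicate 6 again the highest and replicate 10 the lowest PFNA library. The log2 fold change was -2.09 (standard error 0.27, edgeR adjusted p = 1.9e-07), from 2582 ± 517 to 605 ± 354 CPM (SD, n = 12 and 11).

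Hbegf, a heparin-binding ligand of Egfr and Erbb4, moved the other way. It was low in this window, with 32 to 100 counts per control library and 102 to 253 per PFNA library. The controls ranged from 2.97 to 6.82 CPM (median 3.81) and the PFNA libraries from 6.12 to 16.3 CPM (median 10.7). Of the PFNA libraries 9 of 11 lay above every control, and the log2 fold change was 1.40 (standard error 0.17, edgeR adjusted p = 4.8e-08).

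**Figure D1:**
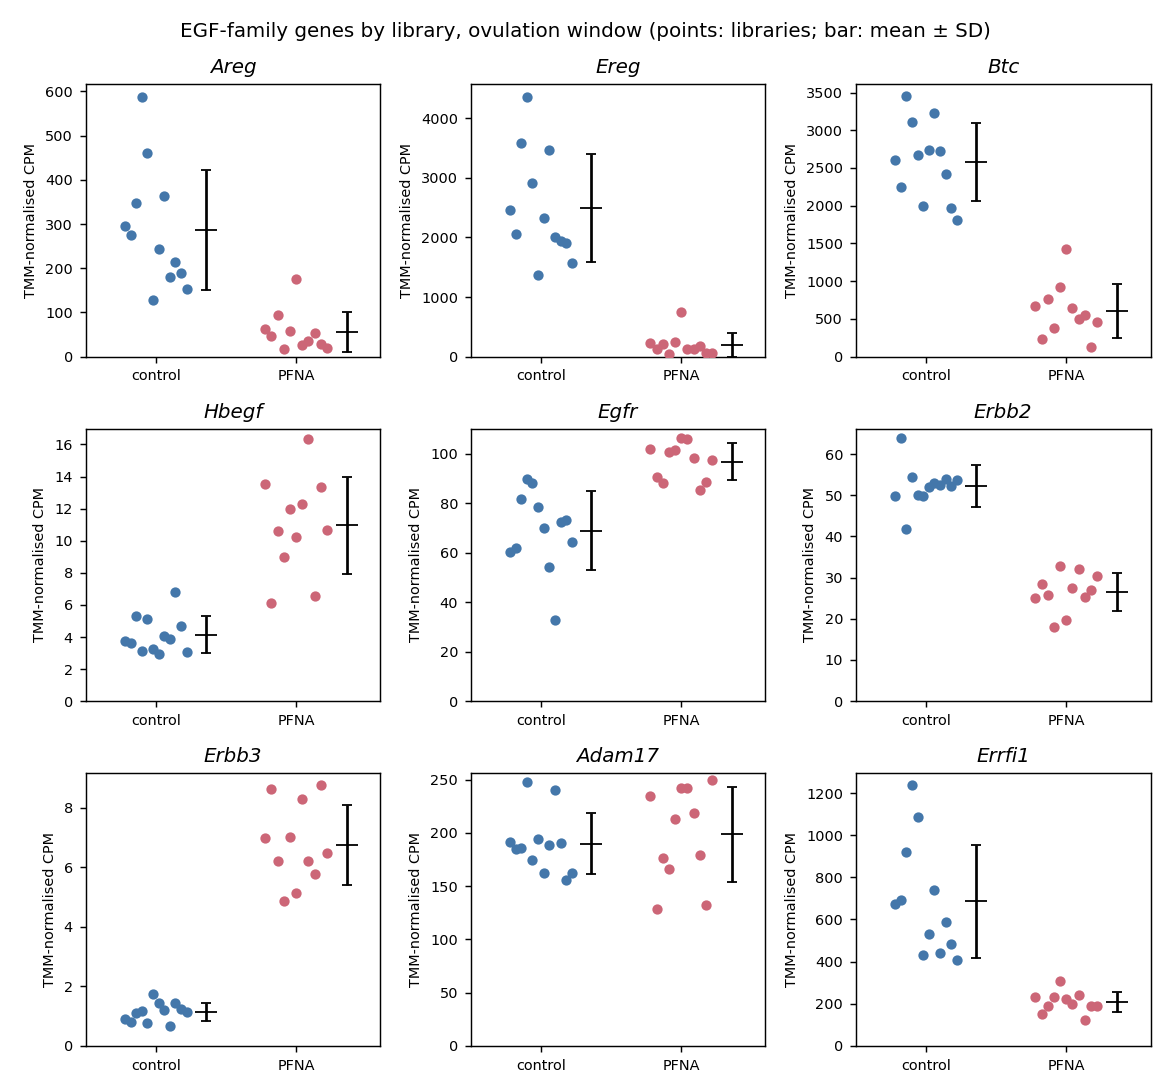
Levels of the 9 genes in the ovulation window in CPM (y axis, linear), each point a library, with 12 hCG controls and 11 hCG with PFNA libraries and bars for mean ± SD. Ereg, Btc, Erbb2 and Errfi1 lie wholly below the controls with PFNA and Erbb3 wholly above.

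Among the receptors, Egfr was higher, Erbb2 lower and Erbb3 higher with PFNA. Egfr, the receptor of the shed ligands, ranged from 32.8 to 90.1 CPM in controls (median 71.2) and from 85.5 to 107 CPM with PFNA (median 98.2). The ranges overlapped, 8 of 11 PFNA libraries exceeded every control, and the log2 fold change was 0.49 (standard error 0.11, edgeR adjusted p = 0.00028).

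Erbb2 ranged from 41.7 to 63.9 CPM in controls (median 52.4) and from 18.1 to 32.8 CPM with PFNA (median 26.9). Every PFNA library lay below every control, and the spread within both groups was narrow. The log2 fold change was -0.98 (standard error 0.087, edgeR adjusted p = 2.1e-10).

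Erbb3 had the fewest counts of the members, 9 to 28 per control library and 70 to 166 per PFNA library. It ranged from 0.673 to 1.75 CPM in controls (median 1.15) and from 4.85 to 8.75 CPM with PFNA (median 6.46). The groups did not overlap, and the mean was 5.95-fold higher with PFNA (log2 fold change 2.56, standard error 0.17, edgeR adjusted p = 9.3e-13). The sum of keratin markers of the ovarian surface (Krt7, Krt8, Krt18 and Krt19, 4 of the 6 markers listed) was also higher with PFNA. It was 5.28 to 22.8 CPM in controls and 23.6 to 70.5 CPM with PFNA, and its correlation with Erbb3 across libraries was not computed. Krt8 carried most of these sums, at means of 12.4 CPM in controls and 42.4 CPM with PFNA. Krt7 and Krt19 were low, at means of 0.024 and 0.901 CPM in controls and 0.362 and 2.65 CPM with PFNA. Only Krt8 and Krt18 were tested, and both were called higher. The 5 endothelial markers summed to 30.05 to 110 CPM in controls and 39.1 to 319 CPM with PFNA, and all 5 were called higher. Higher calls by edgeR were also made for 5 of 9 oocyte markers (59.6 to 262 CPM in controls, 17.9 to 406 CPM with PFNA), 4 of 6 theca markers (62.7 to 297 and 152 to 354 CPM), 3 of 6 immune markers (0.822 to 103 and 2.49 to 146 CPM) and 4 of 6 stroma markers (133 to 1111 and 695 to 1931 CPM). Among these markers Hhip of theca (-1.49) and Pdgfra of stroma (-2.215) were called lower. Of all genes tested 38% were higher and 35.2% lower. The part of these cell types in the changes of the members was not tested. Erbb4, the remaining receptor of the family, was too low to be tested in either window.

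Adam17, the sheddase, ranged from 156 to 248 CPM in controls (median 187) and from 129 to 250 CPM with PFNA (median 213). The ranges overlapped almost fully. The log2 fold change was 0.064 (95% interval -0.16 to 0.29, edgeR adjusted p = 0.61), so a change of the size seen for the ligands lies outside the interval. With the oocyte marker share as a covariate Adam17 was called, at a log2 fold change of 0.26 (edgeR adjusted p = 0.028).

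Errfi1, the feedback inhibitor, ranged from 408 to 1239 CPM in controls (median 632) and from 125 to 306 CPM with PFNA (median 199). The groups did not overlap, and the PFNA libraries were less spread out than the controls. The mean fell from 686 ± 269 to 207 ± 48.2 CPM (SD, n = 12 and 11), a log2 fold change of -1.73 (standard error 0.19, edgeR adjusted p = 9.4e-09). These calls were kept in each of 23 fits that left out a library, in which 8 members were called.

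The same question was asked of the maturation window, whose libraries are not labelled with hCG. Hbegf, Ereg, Areg and Errfi1 were higher with PFNA, at means of 23.2, 3.23, 2.76 and 20.5 TPM against 13.4, 1.48, 0.953 and 15.1 TPM in controls. The receptors and Adam17 did not pass the threshold. Of 8 members tested with limma on log2(TPM + 1), 4 were called, all higher (Benjamini-Hochberg adjusted p under 0.05 over all genes tested), where 29.4% of 13712 genes were called and 13.3% were higher. Groups overlapped for all 9 members, and did not for 1.28% of all genes tested.

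Hbegf ranged from 9.21 to 22.6 TPM in 11 DMSO controls (median 13.4) and from 12.9 to 45.1 TPM in 10 PFNA libraries (median 21.6). The ranges overlapped. PFNA replicates 1 and 2, which lay among the controls on the first component, were at 12.9 and 13.0 TPM. Replicates 3, 5 and 10 were at 19.0, 18.1 and 20.3 TPM, also below the highest control. The remaining 5 exceeded that control. The log2 fold change of Hbegf was 0.70 (standard error 0.18, limma adjusted p = 0.0056), and 0.88 without replicates 1 and 2. The 6 immune markers summed to 2.12 to 84.9 TPM in controls and 34.1 to 201 TPM with PFNA, with the leukocyte gene Ptprc at means of 0.063 and 0.11 TPM, and their part in this rise was not tested.

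Ereg ranged from 0.455 to 3.21 TPM in controls (median 1.49) and from 0.931 to 6.06 TPM with PFNA (median 3.32). Of the PFNA libraries 5 of 10 lay above every control, and replicates 7 and 10 lay low at 1.19 and 0.931 TPM. Its log2 fold change was 0.73 (standard error 0.22, limma adjusted p = 0.015) on the log2(TPM + 1) scale, which understates changes of such low genes.

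Areg ranged from 0.262 to 1.597 TPM in controls (median 0.863) and up to 6.11 TPM with PFNA (median 2.36), where replicate 10 was listed at 0. PFNA replicates 3 and 4 were highest, at 6.11 and 6.03 TPM, and 7 of 10 PFNA libraries exceeded every control. The log2 fold change was 0.77 (standard error 0.29, limma adjusted p = 0.048). The call was kept without control 5, 10 or 12 or PFNA replicate 1, 7, 8 or 10, and lost without any of the other 14 libraries (limma adjusted p from 0.0058 to 0.093 over the 21 fits).

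Errfi1 ranged from 10.3 to 21.7 TPM in controls (median 14.1) and from 14.1 to 30.4 TPM with PFNA (median 20.7), with 4 of 10 PFNA libraries above every control. Its log2 fold change was 0.42 (standard error 0.16, limma adjusted p = 0.049). The call was kept without control 1, 8, 9 or 12 or PFNA replicate 1, 2, 8 or 9, and lost without any of the other 13 libraries (limma adjusted p from 0.027 to 0.091 over the 21 fits). The calls of Ereg and Hbegf were kept in all 21 fits.

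Oocyte markers also differed between these groups, with a median sum of 119 TPM in controls and 1.36 TPM with PFNA. With the oocyte marker share as a covariate, the log2 fold changes were 0.58 for Hbegf (limma adjusted p = 0.041), 0.47 for Ereg (limma adjusted p = 0.13), 0.39 for Areg (limma adjusted p = 0.34) and 0.42 for Errfi1 (limma adjusted p = 0.091), so only Hbegf kept its call. Without PFNA replicates 1, 2 and 10, the libraries that held oocyte markers, all 4 were called, at 0.92, 0.86, 0.98 and 0.50.

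Egfr ranged from 2.77 to 6.44 TPM in controls (median 5.09) and from 3.36 to 6.44 TPM with PFNA (median 4.66), with a log2 fold change of -0.073 (limma adjusted p = 0.65). Erbb2 ranged from 11.4 to 24.5 TPM in controls (median 18.7) and from 16.04 to 23.4 TPM with PFNA (median 18.04), with a log2 fold change of 0.027 (limma adjusted p = 0.86). Neither receptor separated the groups. Erbb3 was at a median of 1.32 TPM in controls and 1.39 TPM with PFNA, with a PFNA spread of 0.0706 to 3.19 TPM around a control range of 0.749 to 2.03 TPM (log2 fold change 0.030, limma adjusted p = 0.92). Adam17 ranged from 16.4 to 29.95 TPM in controls (median 23.5) and from 16.4 to 28.9 TPM with PFNA (median 24.8), with a log2 fold change of -0.073 (95% interval -0.31 to 0.17, limma adjusted p = 0.67). Btc had a mean under 1 TPM and was not tested, at 0.335 to 1.23 TPM in controls (median 0.678) and 0.247 to 1.49 TPM with PFNA (median 0.777). Its gene span is longer than those of Areg and Ereg, which lowers its TPM, so these values do not mean that it had fewer reads.

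**Figure D2:**
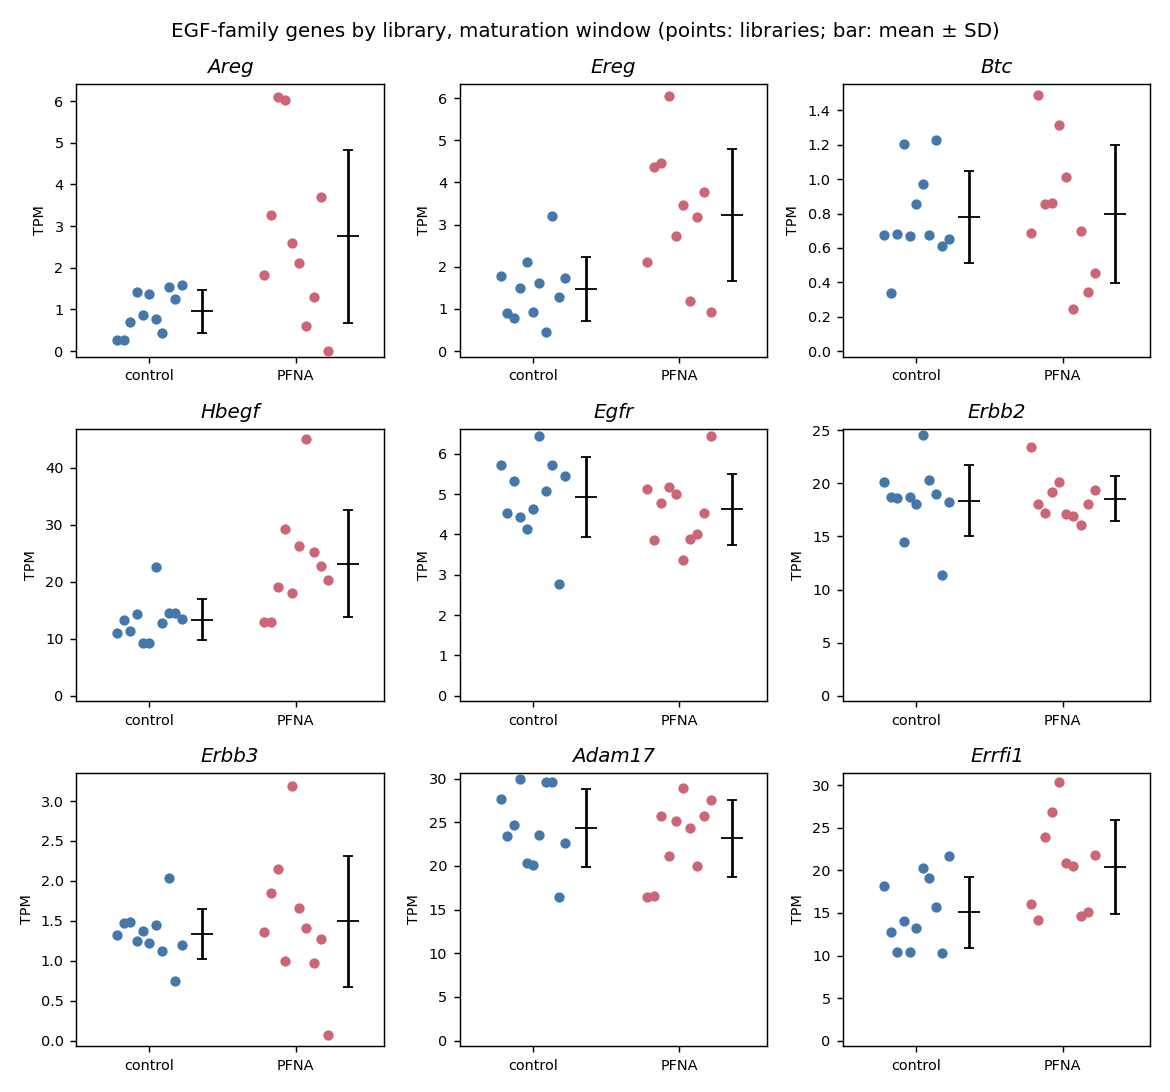
Levels of the 9 genes in the maturation window in TPM (y axis, linear), each point a library, with 11 DMSO controls and 10 PFNA libraries and bars for mean ± SD. The groups overlap for every gene, and Hbegf, Ereg, Areg and Errfi1 have higher PFNA means.

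Whether the PFNA effect differed between the windows was tested by subtracting the maturation effect, on log2(TPM + 1), from the ovulation effect, on log2(CPM + 1). Levels were not compared across the tables. Of 8 members tested, 6 differed (limma, Benjamini-Hochberg adjusted p under 0.05), where 67.7% of 11213 genes did, 32% being higher and 35.6% being lower in the later window. Of the members 2 were higher and 4 lower. Ereg had the largest difference of the members, -4.78 (standard error 0.41, limma adjusted p = 7.0e-13), from higher with PFNA in the maturation window to lower in the ovulation window. Areg differed by -3.30 (standard error 0.43, limma adjusted p = 7.5e-09) and Errfi1 by -2.09 (standard error 0.24, limma adjusted p = 2.3e-10), with the same change of sign. Among the receptors Erbb3 differed by 1.83, Erbb2 by -0.99 and Egfr by 0.60 (limma adjusted p = 6.0e-10, 5.0e-09 and 0.00090), each with a maturation effect near 0. Hbegf rose in both windows, and its difference of 0.50 did not pass (standard error 0.23, limma adjusted p = 0.054). It passed in 11 of 44 fits that left out a library, namely without maturation control 6 or 7, maturation PFNA replicate 4, 6 or 7, ovulation control 3, 5 or 10 or ovulation PFNA replicate 2, 4 or 9 (0.52 to 0.61). It also passed with a pseudocount of 0.1 (0.63, limma adjusted p = 0.026), median-ratio size factors (0.55, limma adjusted p = 0.033) and the oocyte covariate (0.73, limma adjusted p = 0.017). Adam17 differed by 0.11 (standard error 0.16, limma adjusted p = 0.54). The window and the table, with its own processing, cannot be told apart.

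**Figure D3:**
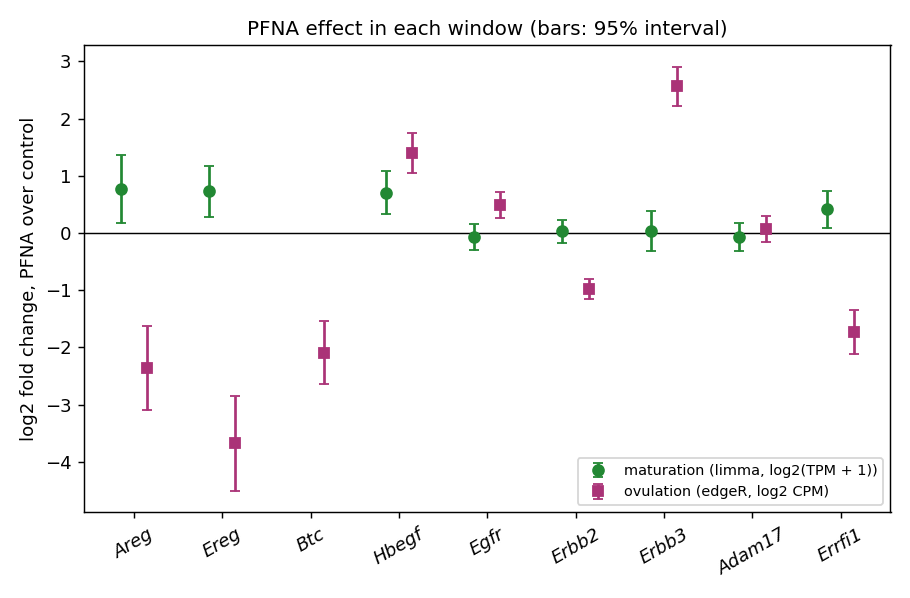
Log2 fold change of PFNA over control (y axis) with 95% intervals, for 9 genes in the ovulation window and 8 in the maturation window, where Btc was not tested. Ereg, Areg and Errfi1 lie above 0 in the maturation window and below 0 in the ovulation window, and Hbegf lies above 0 in both.

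The order of the genes by level was read within each group. It is per gene span in the maturation window and per transcript length in the ovulation window, which are unlike measures. A span includes introns, so the maturation order lowers genes of long span, such as Egfr and Btc, against short ones. In maturation controls the medians were highest for Adam17 (23.5 TPM), Erbb2 (18.7 TPM), Errfi1 (14.1 TPM) and Hbegf (13.4 TPM), whose library ranges overlapped from each to the next. Within libraries Adam17 lay above Erbb2 in 10 of 11, Erbb2 above Errfi1 in 10 of 11 and Errfi1 above Hbegf in 6 of 11. Egfr followed at 5.09 TPM, below every library of Hbegf, and Ereg (1.49 TPM), Erbb3 (1.32 TPM), Areg (0.863 TPM) and Btc (0.678 TPM) were low and overlapped. Hbegf made up 80.5 ± 6.65% of the summed TPM of the 4 ligands in these controls and 76.4 ± 12.03% with PFNA (SD, n = 11 and 10). These shares are per gene span and cannot be set against the shares per transcript length of the ovulation window. On that scale Hbegf had the largest mean share of the 4 ligands in both groups of this window, and shares per transcript length were not computed there.

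For the ovulation window, levels per length were recomputed as TPM from the counts and the longest GENCODE M21 basic transcript, which matched 97.6% of genes. In hCG controls Btc led with a median of 2558, ahead of Ereg at 1563, Areg at 630 and Errfi1 at 599, with the library ranges of neighbours overlapping. Within libraries Btc lay above Ereg in 12 of 12 and Ereg above Areg in 12 of 12. Areg lay above Errfi1 in 7 of 12, so only that step is not resolved. Adam17 (117), Erbb2 (29.8), Egfr (20.3), Hbegf (4.56) and Erbb3 (0.515) followed. Errfi1 did not overlap with Adam17, nor Adam17 with Erbb2, nor Egfr with Hbegf, nor Hbegf with Erbb3. With PFNA the order became Btc (566), Errfi1 (197), Adam17 (131), Areg (120), Ereg (100.1), Egfr (28.5), Erbb2 (16.4), Hbegf (13.7) and Erbb3 (3.19), each as a median. The ranges of Adam17, Areg and Ereg overlapped in these libraries. Adam17 lay above Areg in 7 of 11 and Areg above Ereg in 5 of 11, so their order is not resolved. The share of Ereg in the summed recomputed TPM of the 4 ligands was 34.1 ± 3.05% in controls (range 29.2 to 40.3%) and 13.96 ± 4.86% with PFNA (range 5.67 to 21.9%), without overlap. The share of Btc was 52.7 ± 5.59% and 68.8 ± 10.9%, that of Areg 13.1 ± 3.07% and 15.2 ± 6.53%, and that of Hbegf 0.106 ± 0.037% and 2.11 ± 1.66% (SD, n = 12 and 11).

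Correlation across libraries was computed within each of the 4 groups on log2 values, for 128 pairs of members, and 7 pairs passed (Pearson, permutation test with Benjamini-Hochberg adjustment over the 128, two-sided). The share over all pairs of genes was not computed, so the count says nothing particular to the members. Genes outside the family also followed Areg and Ereg closely in the ovulation window, as listed below. Areg and Ereg passed in 3 of the 4 groups. In hCG controls r was 0.939 (Spearman 0.944, permutation adjusted p = 0.0013, n = 12), with PFNA after hCG 0.942 (Spearman 0.918, permutation adjusted p = 0.0013, n = 11) and with PFNA in the maturation window 0.928 (Spearman 0.915, permutation adjusted p = 0.0048, n = 10). Without the 2 libraries farthest from the median of Areg, r was 0.876, 0.850 and 0.897. In DMSO controls r was 0.441 (Spearman 0.400, permutation adjusted p = 0.57, n = 11), and the difference from the other groups was not tested.

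Errfi1 followed Areg in hCG controls, with r = 0.967 (Spearman 0.972, permutation adjusted p = 0.0013, n = 12, r = 0.965 without the 2 farthest libraries). With PFNA the same pair had r = 0.0254 (Spearman 0.0636, permutation adjusted p = 0.98, n = 11), and the difference between these values was not tested. Errfi1 and Ereg behaved likewise, with r = 0.885 in hCG controls (Spearman 0.909, permutation adjusted p = 0.0056, r = 0.79 without the 2 farthest libraries) and r = 0.116 with PFNA (permutation adjusted p = 0.90). Ereg and Btc had r = 0.881 in hCG controls (Spearman 0.867, permutation adjusted p = 0.0060, r = 0.855 without the 2 farthest libraries) and r = 0.766 with PFNA, which did not pass (permutation adjusted p = 0.083, Spearman 0.864 with permutation adjusted p = 0.020). Egfr and Erbb2 passed in DMSO controls (r = 0.879, permutation adjusted p = 0.021, n = 11), but r fell to 0.464 without the 2 farthest libraries and Spearman's 0.682 did not pass (permutation adjusted p = 0.25), so that relation rests on those libraries. No pair with Adam17 passed in any group.

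Lhcgr, the luteinizing hormone receptor through which hCG acts, was set beside the ligands after their values had been seen. It ranged from 25.5 to 113 CPM in hCG controls (median 45.5) and from 48.9 to 779 CPM with PFNA (median 92.6), highest in the same replicate 6, with a log2 fold change of 1.80 (edgeR adjusted p = 0.00053). Within the PFNA libraries it followed Ereg (r = 0.928, Spearman 0.936, permutation adjusted p = 0.00020 over 10 tests, n = 11), Areg (r = 0.906, Spearman 0.900, permutation adjusted p = 0.00075) and Btc (r = 0.788, Spearman 0.891, permutation adjusted p = 0.011). Without the 2 libraries farthest from the median, these values were 0.892, 0.916 and 0.626. Lhcgr and Hbegf had r = -0.042 (permutation adjusted p = 0.90). In hCG controls Areg and Ereg had r = 0.687 and 0.648 with Lhcgr (permutation adjusted p = 0.030 and 0.036, n = 12). Their Spearman values of 0.678 and 0.664 passed too (permutation adjusted p = 0.036 for both). Without the 2 farthest libraries r fell to 0.322 and 0.405, so the size of these relations depends on those libraries. Across groups the direction was opposite, since Lhcgr was higher and the 3 ligands lower with PFNA.

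**Figure D4:**
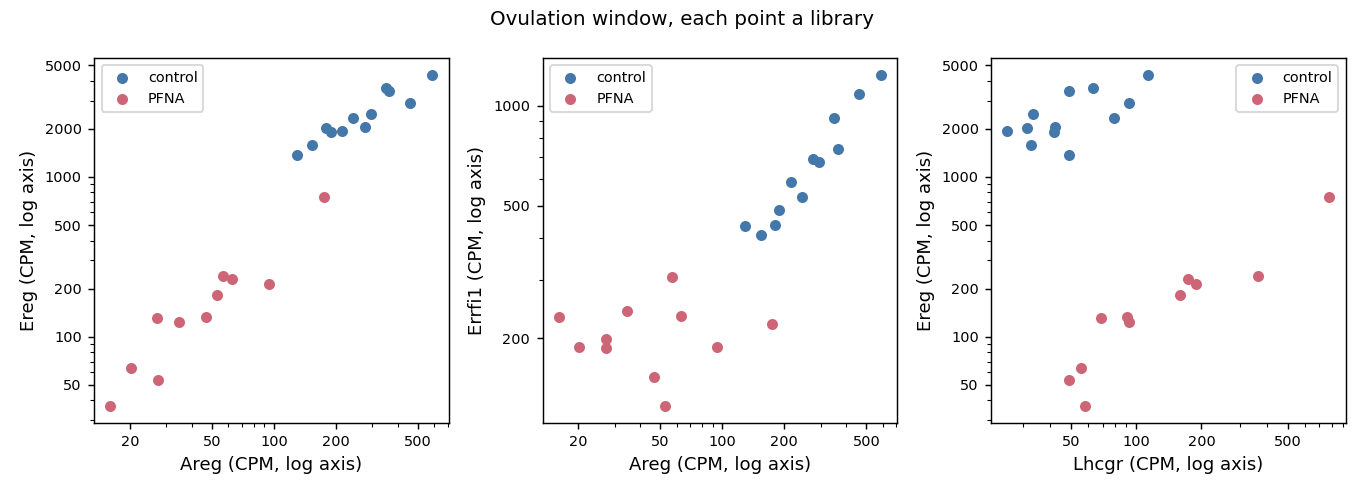
Ovulation window, each point a library, CPM on log axes, for Ereg against Areg, Errfi1 against Areg and Ereg against Lhcgr in 12 hCG controls and 11 PFNA libraries. Ereg follows Areg in both groups, Errfi1 follows Areg in the controls (r = 0.967) but not with PFNA (r = 0.0254), and PFNA replicate 6 is the point of highest Lhcgr.

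The genes whose level moved most like Areg and Ereg over the 23 ovulation libraries, with each group centred on its mean, were listed as a description over 8871 genes. For Areg they were Lrrn3 (r = 0.948), Epgn (0.939), Selenok (0.932), Ereg (0.925) and Pgr (0.915). For Ereg they were Sult1e1 (0.969), Lrrn3 (0.943), Pgr (0.941), Selenok (0.927) and Areg (0.925). Pgr, the progesterone receptor, Sult1e1, an oestrogen sulfotransferase, and Lrrn3 fell with PFNA, with log2 fold changes of -3.78, -4.84 and -3.77, whereas Selenok rose by 0.43 on the log2 scale (edgeR adjusted p = 1.9e-08, 1.0e-09, 1.7e-08 and 0.0018). The leading values of the maturation window were lower, over 21 libraries and 8485 genes, with Kmt5c (0.789), Trappc6a (0.758), Eno1b (0.744), Serpina3a (0.727) and Eno1 (0.707) for Areg. For Ereg they were Serpina3a (0.729), Qpctl (0.724), Gpr137 (0.713), Lipg (0.692) and Insl3 (0.691). Eno1 and Eno1b are near-identical copies whose reads cannot be split with certainty, and both had negative r with Areg in the controls alone (-0.499 and -0.288).

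The chromosome 5 neighbourhood held 9 genes within 250 kb of the ligand cluster. Epgn (epigen), a further ligand gene, starts at -112.1 kb relative to Areg and fell in the ovulation window from 31.8 ± 21.7 CPM (range 10.4 to 87.2, n = 12) to 5.12 ± 4.30 CPM (range 0.492 to 15.002, n = 11), a log2 fold change of -2.63 (standard error 0.43, edgeR adjusted p = 8.5e-06). Of the 9 genes 7 were called lower by edgeR. This count holds Ereg, Areg and Btc, around which the region was drawn, so it is not separate from their results. Beside the ligands the lower genes were Cxcl2, a chemokine (-1.47), Mthfd2l, a mitochondrial folate enzyme (-0.92), and Parm1 (-2.35), all named for their position. Gm19619 was higher (2.96) and Cxcl1 did not pass (-0.28, edgeR adjusted p = 0.24), where 35.2% of all genes tested were lower and 38% higher. Of the 6 tested in the maturation window, Cxcl1 (1.34), Ereg and Areg were called higher and Parm1 lower (-0.32).

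**Figure D5:**
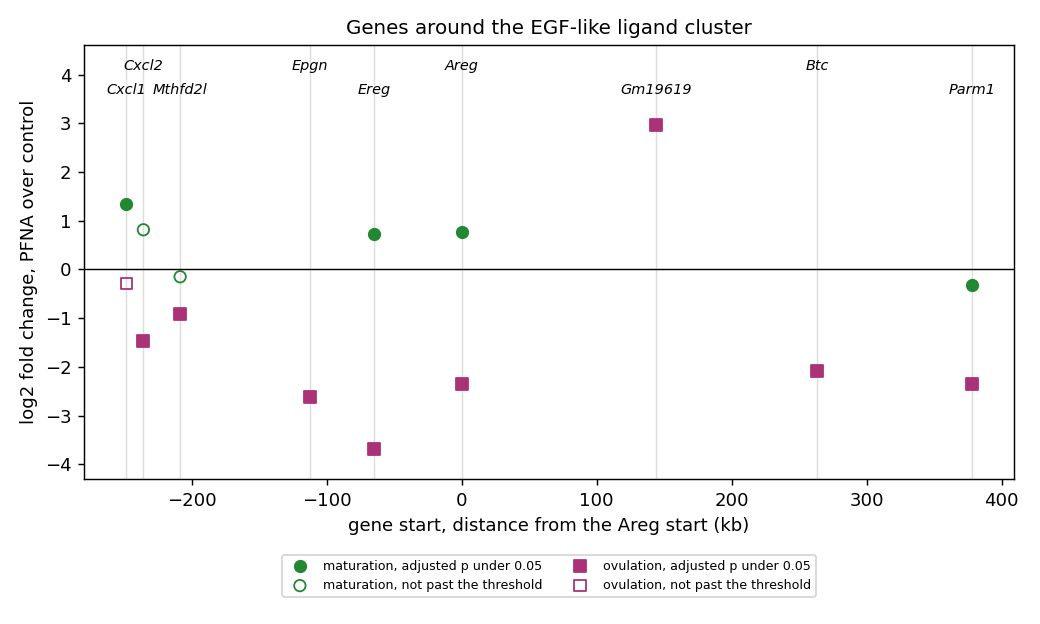
Log2 fold change of PFNA over control (y axis) for the 9 genes around the ligand cluster by distance of the gene start from that of Areg in kb (x axis), in both windows, with open symbols for genes past no threshold. In the ovulation window 7 of 9 are lower, the ligands among them, with Gm19619 higher and Cxcl1 not called.

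Other ligands of the family were mostly low. Tgfa, a ligand of Egfr, rose in the maturation window from 3.51 ± 1.27 to 5.61 ± 2.28 TPM (log2 fold change 0.53, limma adjusted p = 0.040) and was at 39.9 ± 8.29 and 34.1 ± 7.71 CPM in the ovulation window, which did not pass (-0.23, edgeR adjusted p = 0.10). Of 6 tested after hCG, Nrg2 and Egf were called higher (1.48 and 1.84, at means up to 3.82 and 1.601 CPM) and Epgn and Nrg1 lower (-2.63 and -0.56). The median of the 6 was -0.015 against 0.039 for all genes tested, of which 73.2% were called.

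Regulators of shedding other than Adam17 had a median log2 fold change of -0.30 over 10 genes in the ovulation window, with 4 called higher and 5 lower, where 38% of all genes tested were higher and 35.2% lower. Adam15 (0.72) and Timp3 (0.75), an inhibitor of Adam17, rose, and Adam9 (-0.59) and Frmd8 (-0.69) fell. Frmd8 and the iRhoms hold Adam17 at the cell surface, and the iRhom genes Rhbdf2 and Rhbdf1 fell too (-0.69 and -0.49, edgeR adjusted p = 1.5e-05 and 0.00013). Adam10 did not pass (-0.11, edgeR adjusted p = 0.11). During maturation 2 of 10 were called, both higher, against 13.3% of all genes tested, and these were the iRhom genes (Rhbdf2 0.39 and Rhbdf1 0.35, limma adjusted p = 0.0067 and 0.013), with a list median of 0.29 against 0.023 for all genes.

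Genes that limit or recycle the receptors had a median of -0.68 over 10 genes in the ovulation window, with 8 called lower and 2 higher, against 35.2% and 38% of all genes tested. Lrig1, a membrane protein that promotes loss of ErbB receptors, fell from 187 ± 28.6 to 66.4 ± 10.2 CPM (-1.50, edgeR adjusted p = 2.5e-13), and Rnf41, a ubiquitin ligase that targets Erbb3, fell (-0.79). Sh3kbp1, an adaptor of Cbl in receptor uptake, rose (0.98), as did the deubiquitinase Usp8 (0.34). During maturation 3 of 10 were higher, with Rnf41 (0.28) and Lrig3 (0.36) first by p, and 1 was lower, Sh3kbp1 (-0.61), with a median of 0.20, where 13.3% of all genes tested were higher and 16.1% lower.

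Of 15 genes from the adaptors to ERK, 9 were called lower by edgeR in the ovulation window and the other 6 did not pass, where 73.2% of all genes tested were called and 35.2% were lower. Map2k2, the kinase MEK2, and Hras led the lower genes (-0.76 and -0.85), and the median was -0.28. During maturation 3 were higher, led by Braf (0.31) and Gab1 (0.28), and 3 lower, led by Map2k1 (-0.35) and Hras (-0.22), with a median of 0.067, where 29.4% of all genes tested were called.

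All 5 cumulus expansion genes, known targets of the ligands, were lower with PFNA after hCG, with a median of -4.11, where 35.2% of all genes tested were lower. Ptgs2, the prostaglandin synthase, fell from 5646 ± 1997 to 153 ± 57.0 CPM (-5.21, edgeR adjusted p = 7.7e-15), and Ptx3, a protein of the cumulus matrix, fell from 1113 ± 207 to 13.2 ± 9.40 CPM (-6.39, edgeR adjusted p = 2.6e-14). In the maturation window Vcan, a matrix proteoglycan, and Has2, which makes hyaluronan, were lower (-1.68 and -0.55, limma adjusted p = 0.00023 and 0.025), the opposite direction to Areg and Ereg there, and Tnfaip6 did not pass (0.036, limma adjusted p = 0.90). Ptgs2 had a mean under 1 TPM and was not tested.

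Of 7 genes listed as upstream of the ligands, 3 were higher and 4 lower after hCG with PFNA, with a median of -0.47, against 38% higher and 35.2% lower among all genes tested. Nr5a2, a nuclear receptor of granulosa cells, rose (1.35), as did Ptger2, a prostaglandin E2 receptor (0.97), and Lhcgr, given above. Cebpb, which is in this list although it is activated downstream of ERK, and Pgr fell (-1.02 and -3.78). In the maturation window Ptger2 and Creb1 were higher (0.79 and 0.30), Nr5a2 was lower (-0.51) and Lhcgr did not pass (-0.41, limma adjusted p = 0.36). Ptger2 was thus higher in both windows, with 9 of 10 and 7 of 11 PFNA libraries above every control.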

How the data were processed

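RNA from 44 libraries of mouse follicles was analysed from gene tables the authors deposited. In the maturation table the authors deposited TPM, although its name speaks of raw counts, since each library sums to 1e+06 and 82.3% of values are not whole (tolerance 0.001). The length given with these values is the gene span from start to end, not the transcript length. The ovulation values, as deposited by the authors, are estimated counts (14.9% of values not whole), rounded here. The submitters' processing notes name Bowtie2, HISAT2 and Partek without their roles, and the annotation used is not given in the sources used here. The column of maturation control 6 differed from its title by 1 letter and was taken as that library. No column was left unused.

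For the maturation window limma 3.58.1 was fitted to log2(TPM + 1) with trend and robust options, leaving out genes whose mean was under 1 TPM. Since that TPM is per gene span, the filter falls harder on genes of long span. The ovulation window was tested with edgeR 4.0.16 (R 4.3.3), using filterByExpr, TMM and robust quasi-likelihood fits, and printed values are TMM-normalised CPM. Differences between windows used the limma effects of both with Satterthwaite degrees of freedom. P-values were adjusted over all genes tested by the Benjamini-Hochberg method at 0.05, and permutation tests used 100000 resamples. The scripts were tested on simulated data. The precision of ovulation values follows from totals of 10.6 to 19.5 in units of 1e+06 counts, and that of TPM was not assessed.

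The 9 members, the pathway and marker lists and the tests were chosen with earlier results of these data known. Genes named beside the members were the 2 of smallest p in each direction per list and window, Lhcgr, Ptgs2 and the 5 genes most like Areg and Ereg. Genes at the ligand cluster, some other list members and the Lhcgr correlations were added after values were seen. Alternatives were the pseudocount, the filter, size factors, DESeq2 1.42.0, a replicate block, an oocyte covariate and leaving out libraries.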

Additional observations from a re-analysis of the deposited data

Results flagged for a closer look

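Hbegf in the maturation PFNA group stood apart in replicate 7, at 45.1 TPM against 29.2 TPM in the next highest of 10 libraries. This was the only such gap among the 9 genes searched in that group, and since the threshold passes about 1 in 20 groups of normally spread values, 1 gap among 9 genes is not rare. The groups of more than 10 libraries were not searched. The cause was not tested, and Hbegf kept its call without that library.

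PFNA effects that differed between the ovulation and the maturation window by limma were -4.78 for Ereg, -3.30 for Areg, -2.09 for Errfi1, 1.83 for Erbb3, -0.99 for Erbb2 and 0.60 for Egfr, as differences of log2 fold changes. The windows were deposited as separate tables in different units, so the window and the table cannot be told apart.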

How the results depend on the processing

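In the ovulation window 8 members were called under every alternative but the oocyte covariate, which gave 9. In the maturation window the count of 4 fell to 2 without a filter on low values, to 1 with the oocyte covariate and to between 2 and 4 when a library was left out. The replicate block also gave 1 in that window, with Hbegf called, and replicate numbers did not pair the libraries (correlations of -0.138 to 0.168 over 9 pairs and -0.193 to 0.073 over 11 pairs, with 0 libraries correlating best with their own number). With the block 8 members were called in the ovulation window. Members that differed between windows numbered 6 or 7, and 6 or 7 pairs of members correlated. Beside the alternatives given with the results, Areg lost its maturation call with a pseudocount of 0.1 (1.04, limma adjusted p = 0.18), without a filter (0.77, limma adjusted p = 0.066) and without PFNA replicates 1 and 2 (0.74, limma adjusted p = 0.071), and Errfi1 without a filter (0.42, limma adjusted p = 0.070).

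Only maturation effects that passed no threshold changed sign. Erbb3 was at -0.0943 with pseudocount 0.1, -0.24 with the oocyte covariate, -0.0036 without PFNA replicates 1 and 2, and -0.062 to 0.16 when each library was left out in turn, below 0 in 4 of 21 fits. Erbb2 was at -0.0018 with median-ratio size factors, -0.047 with the replicate block, -0.01028 without PFNA replicates 1 and 2, -0.02475 without 1, 2 and 10, and -0.035 to 0.069 when each library was left out, below 0 in 3 of 21 fits. Egfr was at 0.052 with the oocyte covariate, and Adam17 at 0.038 without PFNA replicates 1 and 2 and 0.016 without 1, 2 and 10. The cause was not tested. Low counts limit Erbb3 and Hbegf in the ovulation window, and TPM without depth limits Areg, Ereg and Btc in the maturation window.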
